A study of Mus musculus with 16 samples.

Results

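The early transcriptional response of control mouse lung endothelial cells (MLECs) to BMP9 in complex with monomeric soluble endoglin, sENG(M):BMP9, was measured by RNA sequencing in 8 of the 16 libraries of the series, 4 treated with PBS and 4 with ligand. The cells came from the lungs of 4 independent C57BL/6 mice carrying a floxed *Eng* gene, a tamoxifen-inducible Cre expressed from the *Rosa26* locus and the Immorto transgene, which encodes a conditional SV40 large T antigen. They were purified with beads against CD31 and ICAM2 and expanded with interferon gamma and the TGF-beta receptor inhibitor SB431542. Control (Ctrl) cells received vehicle in culture in place of 4-OH-tamoxifen, so that they kept *Eng*, and knockout (KO) cells received 4-OH-tamoxifen. Interferon, inhibitor and tamoxifen were absent after seeding, the cells were starved of serum overnight, and all groups were harvested 90 min after PBS or ligand. Ctrl cells received sENG(M):BMP9 at 0.2 ng/ml of the BMP9 growth factor domain, with soluble endoglin in excess. The other 8 libraries held KO cells given PBS or pro:BMP9, the form with its prodomain. The ages and sexes of the mice were not stated in the labels. Libraries with the same replicate number came from the same isolation, and each Ctrl comparison was made within an isolation.

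BMP9 is a circulating ligand of the TGF-beta family that signals in endothelial cells through the type I receptor ALK1 (gene symbol *Acvrl1*), a type II receptor such as BMPR2, and the co-receptor endoglin, which presents the ligand to the receptors. The activated receptors phosphorylate SMAD1, SMAD5 and SMAD9, which enter the nucleus with SMAD4 and act on target genes, among them inhibitors of the same pathway. In the vessel wall the pathway is known for keeping the endothelium quiescent, and its loss underlies hereditary haemorrhagic telangiectasia and heritable pulmonary arterial hypertension.

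The 8 Ctrl libraries held between 15393299 and 17242117 counts on genes, with no separation in depth between PBS (15393299 to 16029010) and ligand (15643582 to 17242117). Mitochondrial transcripts took between 1.20% and 1.83% of the counts. For sums of markers, here and below, CPM are counts scaled to the raw library total. CPM of single genes are counts scaled to the TMM-normalised library total. The 12 endothelial markers were all detected. Their summed level lay between 3833 and 7742 CPM with PBS and between 3999 and 7744 CPM with ligand. Of these markers, *Kdr* and *Pecam1* passed the test described below, both higher with ligand, *Pecam1* at an adjusted p of 0.195 without isolation 3. Markers of other cells were lower in sum, at 113 to 370 CPM for 11 mural markers, 227 to 876 CPM for 10 fibroblast markers, 72.0 to 217 CPM for 11 epithelial markers and 46.6 to 86.1 CPM for 11 leukocyte markers with PBS. With ligand the corresponding sums were 116 to 373, 234 to 841, 67.5 to 228 and 42.2 to 72.8 CPM, and no member of the 4 lists passed the test. The surfactant gene *Sftpc* had no count in any Ctrl library. The 5 lymphatic endothelial markers summed to 3312 to 5310 CPM with PBS and 3219 to 4990 CPM with ligand, nearly all of it *Lyve1*, and none passed the test. The cells were measured in bulk, so fewer cells expressing a gene and less RNA per cell cannot be told apart.

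After 90 min, 920 of the 15693 genes tested rose with sENG(M):BMP9 (5.86% of genes tested) and 601 fell (3.83%) (edgeR quasi-likelihood F test blocked by isolation, Benjamini-Hochberg adjusted p under 0.05). In all, 9.69% of genes tested were called. Below, a gene is said to rise or fall only where it passed this test, and a log2 fold change is given with its standard error. The rises were larger than the falls. The median rise was 1.32-fold, 138 genes rose at least 2-fold (0.879%) and 34 rose at least 4-fold, whereas the median fall was 1.24-fold, 21 genes fell at least 2-fold (0.134%) and 2 at least 4-fold. Most of the response was small, since 622 of the 920 rises and 500 of the 601 falls were under 1.5-fold. A change in the same direction in 4 of 4 isolations was seen for 902 of the rises and 585 of the falls. Over all 15693 genes tested it was seen for 4183, in either direction. The calls were made on the same isolations, so this agreement is not independent support. The libraries of the 2 groups did not overlap for 319 of the genes that rose (34.7%) and for 136 of those that fell (22.6%), against 2.51% of all genes tested with every ligand library above every PBS library and 1.5% with every ligand library below. The median log2 fold change of the rises was 0.45, 0.41, 0.36 and 0.34 in isolations 1 to 4, and that of the falls was -0.35, -0.36, -0.29 and -0.24. Protein-coding genes made up 882 of the rises and 572 of the falls. Of 1344 long non-coding RNAs tested, 31 rose (2.31%) and 16 fell (1.19%), both under the shares over all genes tested.

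The calls rested on the comparison within isolations. Without the isolation block, 136 genes passed as higher and 31 as lower, and 51 of the 206 called genes considered for naming passed. Leaving out isolation 2 gave 370 falls in place of 601. The quantile normalisation and ComBat steps named in the study's methods gave 1113 rises and 1115 falls, so that rises no longer outnumbered falls. Of the 206 genes, 162 passed in each fit that left out 1 isolation. Those of the other genes that are named here are given with the p obtained.

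**Figure D1:**
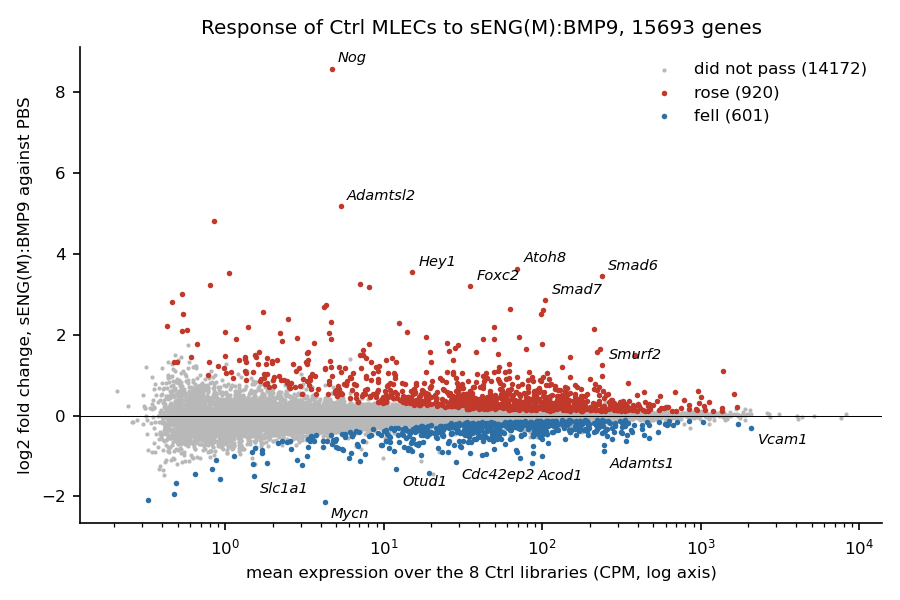
Log2 fold change with sENG(M):BMP9 against PBS in Ctrl MLECs (y axis) plotted for each of 15693 genes against its mean over the 8 Ctrl libraries (x axis, CPM on a log scale). Genes that rose are red (920), genes that fell are blue (601) and the others are grey. Rises of several log2 units, such as *Nog* at 8.58 and *Adamtsl2* at 5.18, have no counterpart among the falls, the largest labelled one being *Mycn* at -2.13.

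Among the 15 largest rises with a mean of at least 1 CPM were *Smad6* and *Smad7*, genes of direct inhibitors of BMP signalling. *Smurf2* was among the 5 rises with the smallest p. *Smad6* (ENSMUSG00000036867, chromosome 9, 63860358 to 63929341, minus strand, GRCm39), which encodes an inhibitory SMAD of the BMP branch, was at 34.9, 41.0, 36.1 and 46.4 CPM with PBS and at 402, 507, 393 and 433 CPM with ligand in isolations 1 to 4. The groups were far apart and the 4 isolations differed little, with log2 fold changes between 3.22 and 3.62, and the fit gave a log2 fold change of 3.45 ± 0.0610 (SE, adjusted p = 2.10e-17), the smallest p of all genes tested. *Smad7*, the second inhibitory SMAD, was at 21.4, 27.4, 25.4 and 26.3 CPM with PBS and at 185, 212, 183 and 156 CPM with ligand in isolations 1 to 4 and rose by 2.87 ± 0.0855 log2 units (adjusted p = 7.49e-14). *Smurf2*, a ubiquitin ligase that targets receptors and SMADs of the pathway, rose from 142 ± 2.99 CPM with PBS (mean ± SD, n = 4) to 338 ± 18.8 CPM with ligand (log2 fold change 1.25 ± 0.0367, adjusted p = 7.49e-14). Its single isolations lay close together, between 1.20 and 1.32 on the log2 scale.

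*Nog* (ENSMUSG00000048616, chromosome 11, 89191464 to 89193158, minus strand) encodes the secreted BMP antagonist noggin and was almost silent with PBS. Its raw counts were 0, 0, 1 and 0 with PBS and 272, 226, 93 and 12 with ligand in isolations 1 to 4. Every ligand library exceeded every PBS library, but isolation 4 reached far fewer counts than isolation 1 at a similar depth. The ratio of the summed counts, scaled to library totals, was 574, with a 95% counting interval from 103 to 22697, and the fitted log2 fold change of 8.58 depends on the prior count of the fit. *Adamtsl2*, which encodes a secreted glycoprotein of the fibrillin microfibril matrix, was at 0.455, 0.197, 0.240 and 0.242 CPM with PBS and at 6.54, 5.49, 12.4 and 17.2 CPM with ligand in isolations 1 to 4. Isolations 3 and 4 were highest for *Adamtsl2* and lowest for *Nog*. The *Adamtsl2* rise was a log2 fold change of 5.18 ± 0.328 (SE, adjusted p = 2.37e-09). *Ache*, the gene of acetylcholinesterase, rose from 0.155 ± 0.102 CPM to 1.96 ± 1.13 CPM (log2 fold change 3.53 ± 0.454, adjusted p = 2.14e-05). *Gja4*, which encodes the arterial gap junction protein connexin 37, rose from 1.64 ± 1.25 CPM to 14.4 ± 7.69 CPM (log2 fold change 3.17 ± 0.218, adjusted p = 6.66e-09). *Syt6*, a synaptotagmin gene, was the one of the 15 whose groups overlapped, since it was 0.302 CPM with PBS and 0.404 CPM with ligand in isolation 4. It rose by 2.55 ± 0.475 log2 units (adjusted p = 0.00103). The long non-coding RNA *Gm20544* on chromosome 18 rose from 1.13 ± 0.486 CPM to 7.32 ± 0.892 CPM (log2 fold change 2.69 ± 0.209, adjusted p = 3.75e-08). *Gm20544* (75498403 to 75500159, minus strand) lies close to *Smad7* (75500600 to 75529006, plus strand), which also rose. Whether the changes of this pair are linked was not tested.

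*Eng*, the gene of the co-receptor itself, was at 432, 594, 375 and 439 CPM with PBS and at 652, 776, 525 and 612 CPM with ligand in isolations 1 to 4. Each isolation had more *Eng* with ligand, by 0.39 to 0.59 on the log2 scale, although the groups overlapped because isolation 2 started higher. The rise was a log2 fold change of 0.48 ± 0.0948 (SE, adjusted p = 0.00163). The *Eng* gene overlaps *Fpgs* on the opposite strand.

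**Figure D2:**
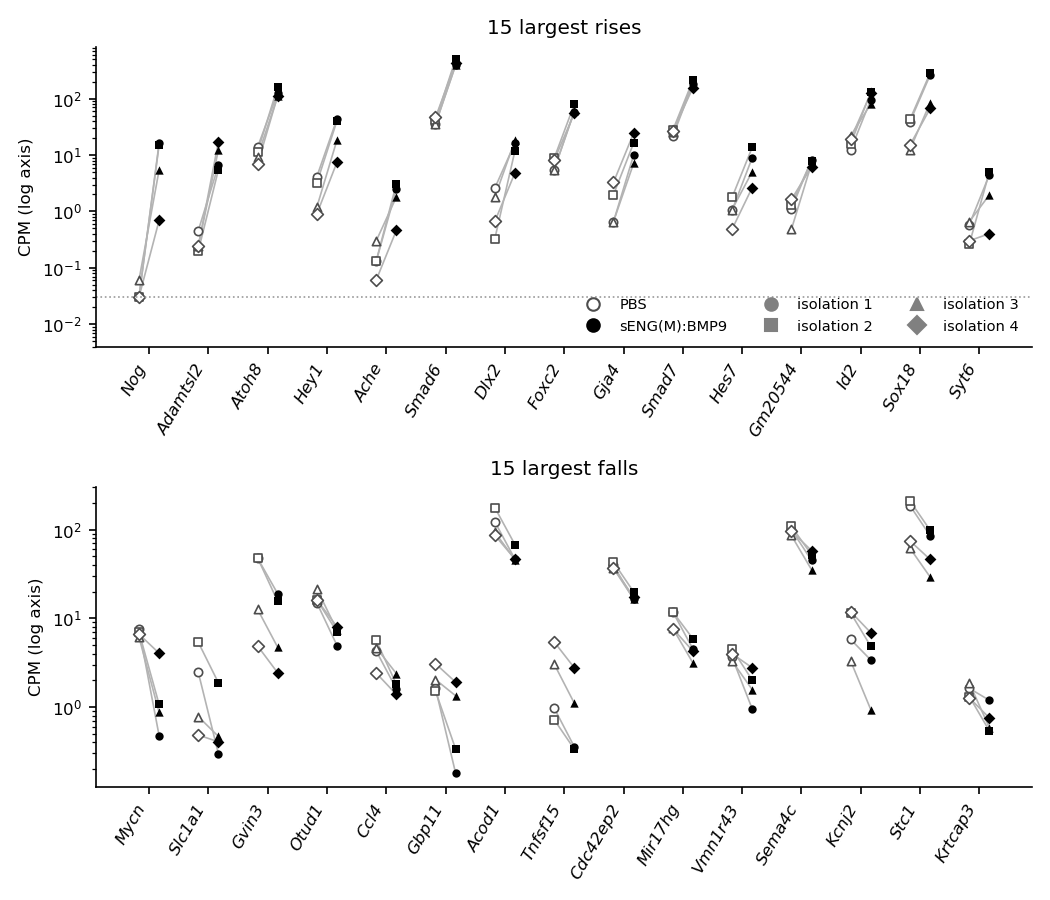
CPM on a log axis for the 15 largest rises (top) and the 15 largest falls (bottom), with PBS as open and sENG(M):BMP9 as filled symbols. Marker shapes give isolations 1 to 4, a line joins both libraries of an isolation, and values under 0.03 CPM are drawn at the dotted line. Each line rises in the top panel and falls in the bottom panel. *Mycn* in isolation 4 keeps 4.04 CPM with ligand, while the other isolations have 0.475 to 1.07 CPM.

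Members of the BMP pathway itself moved at several levels. Of 22 SMAD inhibitors and feedback genes, 9 rose (40.9%, against 5.86% of genes tested) and 2 fell, with a list median of 0.11 against -0.01 for all genes. Besides *Smad6*, *Smad7* and *Smurf2*, the rises included *Pmepa1*, which encodes a membrane protein that sequesters receptor SMADs (log2 fold change 1.64 ± 0.0772, adjusted p = 4.27e-11). *Bambi*, the gene of a pseudoreceptor, rose by 1.32 ± 0.149 log2 units (adjusted p = 4.55e-06). The falls were *Tob1*, a transcriptional repressor gene (log2 fold change -0.27 ± 0.0564, adjusted p = 0.00312), and *Wwp1*, a ubiquitin ligase gene (log2 fold change -0.16 ± 0.0325, adjusted p = 0.00204). Among 13 of 16 BMP and TGF-beta receptors that could be tested, 6 rose (46.2%) and 0 fell. DESeq2 also called 6 and 0, and 2 were lower at an unadjusted p under 0.05 in edgeR. *Bmpr2*, the type II receptor gene, rose from 172 ± 18.1 CPM to 271 ± 56.4 CPM (log2 fold change 0.64 ± 0.0613, adjusted p = 5.26e-07). *Acvr1*, the gene of the type I receptor ALK2, rose by 0.45 ± 0.0483 log2 units (adjusted p = 2.66e-06), and *Acvrl1*, that of ALK1 (log2 fold change 0.21 ± 0.0395, adjusted p = 0.00113). Of 6 genes in all, those of the receptor SMADs and *Smad4*, 2 passed as higher. *Smad9* rose from 1.77 ± 1.25 CPM to 7.24 ± 1.95 CPM (log2 fold change 2.05 ± 0.246, adjusted p = 9.17e-06). The other was *Smad5*, at a log2 fold change of 0.15, whose adjusted p rose to as much as 0.234 with an isolation left out.

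Secreted antagonists and ligands were called in smaller numbers, and no difference between lists was tested. Of 20 antagonist genes, 14 could be tested, 3 rose (21.4%), *Nog* among them, and 1 fell (7.14%). *Nbl1*, which encodes a DAN family antagonist, rose by 0.31 ± 0.0595 log2 units (adjusted p = 0.00151). *Fst*, the follistatin gene, was lower by 0.35 on the log2 scale, but its adjusted p was 0.160 with isolation 2 left out. Of 24 ligand genes, 16 could be tested, with 3 higher (18.75%) and 1 lower (6.25%). *Bmp4* rose in each isolation by 0.90 to 0.99 (log2 fold change 0.95 ± 0.0442, adjusted p = 4.00e-11). *Inhba*, the inhibin beta A subunit gene of activin A, fell by 0.52 ± 0.0945 log2 units (adjusted p = 8.01e-04). Without isolation 3, 1 ligand gene passed as higher in place of 3. Without the block, 5 of the 9 rises among inhibitors, 1 of the 6 among receptors and 0 of the 4 ligand calls passed.

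Helix-loop-helix factors were the list with the largest share of rises. Of 39 genes, 24 could be tested, 16 rose (66.7%) and 0 fell, with a median of 1.00 on the log2 scale, and DESeq2 also called 16 and 0. In edgeR 1 of them was lower at an unadjusted p under 0.05. The list was chosen with earlier results known and leaves out *Mycn*, a bHLH gene that fell. In the bHLH family of the deposited table, 19 of 52 genes tested rose (36.5%) and 4 fell (7.69%), with a median of 0.03. *Atoh8* (ENSMUSG00000037621, chromosome 6, 72183161 to 72212561, minus strand), a basic helix-loop-helix factor gene, was at 13.8, 11.5, 9.42 and 6.89 CPM with PBS and at 128, 162, 111 and 113 CPM with ligand in isolations 1 to 4. Its rise of 3.20 to 4.01 in the single isolations corresponds to a log2 fold change of 3.64 ± 0.111 (SE, adjusted p = 8.06e-14). The 4 *Id* genes, which encode dominant negative partners of basic helix-loop-helix factors and are classical BMP targets, all rose. *Id1* (chromosome 2, 152578171 to 152579330, plus strand) was at 23.3, 20.4, 35.3 and 39.9 CPM with PBS and at 119.9, 189, 167 and 194 CPM with ligand in isolations 1 to 4 (log2 fold change 2.51 ± 0.129, adjusted p = 1.42e-10). *Id2* rose from 17.4 ± 4.20 CPM to 108 ± 23.9 CPM (log2 fold change 2.64 ± 0.175, adjusted p = 4.52e-09). *Id3* rose from 112 ± 17.3 CPM to 334 ± 65.4 CPM (log2 fold change 1.58 ± 0.0752, adjusted p = 5.02e-11). *Id4* rose by 1.90 ± 0.254 log2 units (adjusted p = 3.30e-05). *Id1*, *Id3* and *Id4* lay outside the rule for naming and were added after their values were seen. *Hes7*, the gene of an oscillating repressor of the somite clock, rose from 1.09 ± 0.528 CPM to 7.60 ± 4.84 CPM (log2 fold change 2.73 ± 0.229, adjusted p = 1.04e-07). A fit without the block called 9 of the 16.

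Transcription factor genes were called in both directions. Those that the deposited table assigns to a transcription factor family numbered 1063 of the genes tested, of which 132 rose (12.4%, against 5.86% of genes tested) and 79 fell (7.43%, against 3.83%). By family, 19 of 52 bHLH genes (36.5%), 17 of 63 homeobox genes (27.0%), 8 of 26 fork head genes (30.8%) and 8 of 42 HMG genes (19.0%) rose. Falls numbered 4 (7.69%), 4 (6.35%), 1 (3.85%) and 1 (2.38%) in the same order. Of the 473 C2H2 zinc finger genes, 24 rose (5.07%) and 35 fell (7.40%). In the homeobox list 18 of 55 rose (32.7%) and 2 fell (3.64%), although 10 rises passed without isolation 2. *Dlx2*, a distal-less homeobox gene, rose from 1.35 ± 1.05 CPM to 12.8 ± 5.95 CPM (log2 fold change 3.26 ± 0.298, adjusted p = 3.26e-07), and *Hoxa3* from 11.2 ± 1.77 CPM to 38.9 ± 3.79 CPM (log2 fold change 1.80 ± 0.0952, adjusted p = 2.12e-10). *Hhex*, the haematopoietically expressed homeobox gene, fell by 0.49 ± 0.0856 log2 units (adjusted p = 5.04e-04). Of 53 GATA, forkhead, SOX and ETS genes, 16 rose (30.2%) and 6 fell (11.3%). *Foxc2*, a forkhead gene needed in lymphatic valves, was at 5.52, 8.74, 5.46 and 8.10 CPM with PBS and at 59.1, 79.4, 60.8 and 54.9 CPM with ligand in isolations 1 to 4 (log2 fold change 3.19 ± 0.101, adjusted p = 1.19e-13). *Sox18*, an endothelial SOX gene, differed widely in level between isolations, at 39.1, 42.9, 12.5 and 15.1 CPM with PBS and at 263, 286, 84.8 and 67.0 CPM with ligand in isolations 1 to 4. It rose in each of them (log2 fold change 2.62 ± 0.0954, adjusted p = 8.05e-13). *Foxc1* and *Gata2* rose with log2 fold changes of 0.92 and 0.90. *Fli1*, *Ets2* and *Sox4* fell with log2 fold changes of -0.52, -0.47 and -0.41. *Snai1*, the gene of a repressor active in endothelial-to-mesenchymal transition, rose from 17.8 ± 3.43 CPM to 81.2 ± 16.5 CPM (log2 fold change 2.19 ± 0.0764, adjusted p = 5.10e-13), and was 1 of 3 rises and 1 fall among 9 genes of that kind. When the block was removed, 3 homeobox rises and 4 of the GATA, forkhead, SOX and ETS rises passed.

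Promoter sequence was read from RefSeq windows of GRCm38.p6, from 250 bases before to 50 after each start site, for the SMAD1 and SMAD5 binding motif GGCGCC. Windows were found for 11038 of the genes tested, 14088 windows in all, searched on both strands (the motif reads the same on each). GGCGCC was in 20.4% of all windows, in 32.0% of the 980 windows of genes that rose (685 genes), in 32.8% of the 128 windows of genes that rose at least 2-fold, and in 17.9% of the 597 windows of genes that fell (444 genes). Mean GC content differed between these sets, at 60.5%, 64.5%, 62.7% and 61.3%. Among windows of 60 to 70% GC the shares were 24.7%, 30.4%, 40.4% and 19.5%. The related motif GGAGCC was in 41.1% of all windows, 51.3% of those of risen genes and 38.7% of those of fallen genes. The motif CAGACA, which holds the SMAD4 box, was in 16.1%, 16.9% and 13.7% of windows in the same order. Among windows of that GC range the shares were 49.1%, 54.3% and 48.6% for GGAGCC, whereas CAGACA was in 13.9% of all windows, 13.2% of those of risen genes and 33 of the 220 of fallen genes, a higher share, so that its order turned. These shares describe letters in the windows, and binding was not measured.

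Of the 16 genes named for the largest rise or the smallest p among rises, 10 had a window and 5 of these held GGCGCC, and of the 18 such genes that fell, 14 had a window and 2 held it. The stretches around the motif are shown for the 5 risen genes, from RefSeq, with the position of the same sequence in GRCm39 and GGCGCC in capitals.
*Ache* (chr5:137286456-137286515, plus strand): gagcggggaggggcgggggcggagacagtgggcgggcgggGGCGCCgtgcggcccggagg
*Dlx2* (chr2:71377152-71377237, minus strand): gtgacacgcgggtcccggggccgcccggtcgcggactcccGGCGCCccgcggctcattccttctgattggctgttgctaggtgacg
*Id2* (chr12:25146277-25146341, minus strand): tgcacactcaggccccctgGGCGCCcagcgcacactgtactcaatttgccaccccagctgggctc
*Syt6* (chr3:103482464-103482549, plus strand): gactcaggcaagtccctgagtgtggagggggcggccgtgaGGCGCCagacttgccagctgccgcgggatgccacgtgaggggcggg
*Smurf2* (chr11:106811643-106811728, minus strand): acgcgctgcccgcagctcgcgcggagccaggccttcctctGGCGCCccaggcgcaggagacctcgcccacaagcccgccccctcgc
The motif ended 15, 94, 226, 52 and 142 bases before the start site in this order, and the *Smurf2* window held a further copy before its start site.

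The Notch pathway, which shares *Hey* and *Hes* targets with BMP signalling, changed in both directions. Of 27 genes, 6 rose (22.2%) and 4 fell (14.8%). The effector *Hey1*, a repressor gene, was at 4.16, 3.22, 1.20 and 0.906 CPM with PBS and at 44.1, 41.0, 18.6 and 7.51 CPM with ligand in isolations 1 to 4 (log2 fold change 3.55 ± 0.142, adjusted p = 3.65e-12). Isolations 3 and 4 had less *Hey1* than isolations 1 and 2 in both groups. *Hey2* rose by 1.44 ± 0.279 log2 units (adjusted p = 0.00150). *Lfng*, the gene of a glycosyltransferase that modifies Notch receptors, rose by 1.80 ± 0.253 log2 units (adjusted p = 6.10e-05). The ligand genes *Dll4* and *Dll1* fell, *Dll4* from 31.1 ± 23.6 CPM to 20.0 ± 16.9 CPM (log2 fold change -0.68 ± 0.101, adjusted p = 1.03e-04), and *Dll1* (log2 fold change -0.62 ± 0.0674, adjusted p = 3.12e-06). *Dtx4*, a Deltex ubiquitin ligase gene, fell by 0.73 ± 0.0973 log2 units (adjusted p = 3.13e-05). In the WNT list, 13 of 39 genes rose (33.3%) and 1 fell, against 8 rises without isolation 1. *Fzd7*, a WNT receptor gene, rose from 13.3 ± 3.66 CPM to 42.7 ± 7.98 CPM (log2 fold change 1.68 ± 0.105, adjusted p = 1.98e-09), whereas the receptor gene *Fzd5* fell (log2 fold change -0.63 ± 0.0600, adjusted p = 5.41e-07). *Tcf7*, a nuclear effector gene of the pathway, rose by 1.93 ± 0.208 log2 units (adjusted p = 2.66e-06). *Wnt11*, a ligand gene, was at 2.01, 0.394, 0.540 and 0.423 CPM with PBS and at 5.76, 5.76, 1.40 and 1.33 CPM with ligand in isolations 1 to 4 (log2 fold change 2.05 ± 0.360, adjusted p = 5.72e-04). Isolation 2 had the largest *Wnt11* change of the 4. When the block was removed, 3 Notch rises, 0 Notch falls and 3 WNT rises passed.

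Kruppel-like factors were the list with the largest share of falls. Of 14 genes, 6 fell (42.9%, against 3.83% of genes tested) and 4 rose (28.6%). *Klf11* fell from 18.4 ± 2.40 CPM to 10.3 ± 2.08 CPM (log2 fold change -0.85 ± 0.0783, adjusted p = 3.93e-07), and *Klf5* fell by 0.77 to 0.80 in each isolation (log2 fold change -0.81 ± 0.116, adjusted p = 8.09e-05). *Klf10*, the closest relative of *Klf11* and an early TGF-beta target, rose by 0.85 ± 0.0952 log2 units (adjusted p = 4.32e-06). *Klf13* rose by 0.40 ± 0.0408 log2 units (adjusted p = 1.15e-06).

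**Figure D3:**
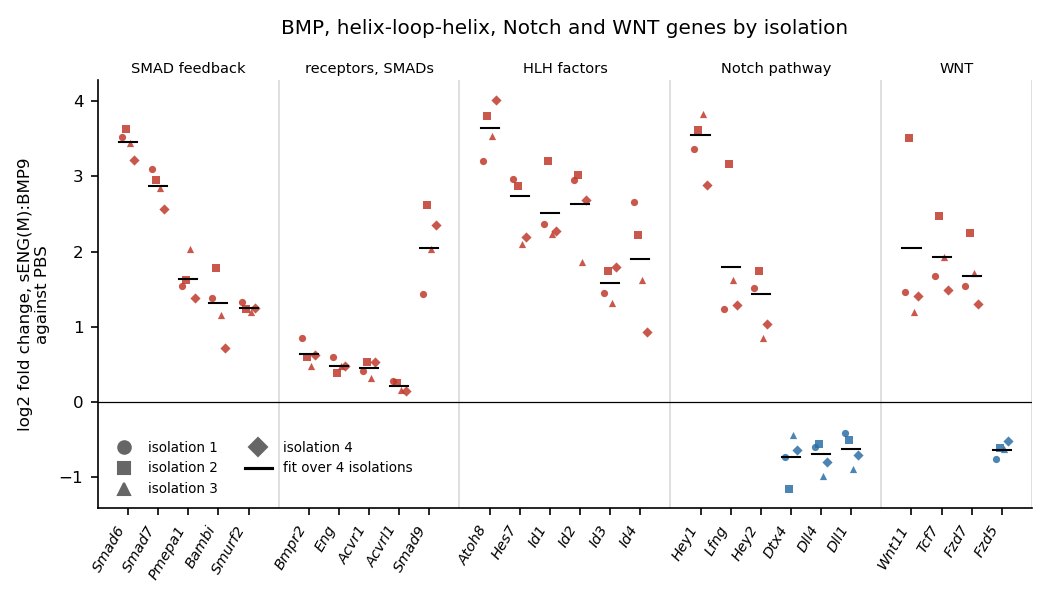
Log2 fold change with sENG(M):BMP9 against PBS in each of isolations 1 to 4 (marker shapes) for members of the BMP pathway, helix-loop-helix factors, Notch and WNT lists. Black bars give the fit over the 4 isolations, red marks rises and blue falls. The 4 isolations of *Smad6* lie between 3.22 and 3.62, and all isolations of *Dtx4*, *Dll4*, *Dll1* and *Fzd5* lie under 0.

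By fitted fold change, the largest fall among called genes was that of *Mycn* (ENSMUSG00000037169, chromosome 12, 12986094 to 12991915, minus strand), which encodes the growth-promoting transcription factor N-MYC. It was at 7.60, 7.03, 6.18 and 6.65 CPM with PBS and at 0.475, 1.07, 0.872 and 4.04 CPM with ligand in isolations 1 to 4. Isolations 1 to 3 lost most of their *Mycn* and isolation 4 less than the others, though all ligand libraries were below all PBS libraries. The fit gave a log2 fold change of -2.13 ± 0.311 (SE, adjusted p = 9.21e-05), which is 22.8% of the PBS level. *Otud1*, a deubiquitinase gene, was at 14.9, 16.2, 21.5 and 16.2 CPM with PBS and at 4.93, 7.03, 7.33 and 8.03 CPM with ligand in isolations 1 to 4 (log2 fold change -1.33 ± 0.108, adjusted p = 7.08e-08). *Cdc42ep2*, an effector gene of the GTPase CDC42 in actin organisation, was at 39.6, 43.1, 36.8 and 37.2 CPM with PBS and at 16.5, 20.0, 16.6 and 17.4 CPM with ligand in isolations 1 to 4. It varied little, by -1.25 to -1.09 in the single isolations (log2 fold change -1.15 ± 0.0712, adjusted p = 1.78e-09). *Sema4c*, a semaphorin gene, was at 100.4, 109, 86.2 and 96.2 CPM with PBS and at 45.1, 52.3, 35.4 and 58.2 CPM with ligand in isolations 1 to 4 (log2 fold change -1.05 ± 0.0637, adjusted p = 1.37e-09). For these 4 genes the groups did not overlap.

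*Mir17hg*, the host transcript of the mir-17-92 microRNA cluster, fell from 9.78 ± 2.40 CPM to 4.46 ± 1.13 CPM (log2 fold change -1.13 ± 0.148, adjusted p = 2.64e-05). The mature microRNAs were not measured by these libraries. *Trib2*, a Tribbles pseudokinase gene, fell from 45.8 ± 8.24 CPM to 24.1 ± 4.10 CPM (log2 fold change -0.93 ± 0.0636, adjusted p = 6.66e-09). *Acod1*, which encodes the enzyme that makes itaconate, was at 123, 178, 93.7 and 86.8 CPM with PBS and at 46.5, 67.8, 46.1 and 46.6 CPM with ligand in isolations 1 to 4 (log2 fold change -1.18 ± 0.117, adjusted p = 9.24e-07). *Stc1*, the stanniocalcin 1 gene, was higher in isolations 1 and 2 than in 3 and 4 and fell in each (log2 fold change -1.01 ± 0.0749, adjusted p = 2.06e-08). *Gvin3*, annotated as an unprocessed pseudogene of the very large interferon-inducible GTPases, with exons that overlap *Gm57206* on the same strand, was at 47.8, 48.2, 12.7 and 4.89 CPM with PBS and at 19.0, 15.5, 4.71 and 2.43 CPM with ligand in isolations 1 to 4. Its isolations differed by more than the ligand changed them, and within isolations it fell by 1.43 ± 0.113 log2 units (adjusted p = 4.89e-08). *Kcnj2*, the gene of an inward rectifier potassium channel, fell by 1.04 ± 0.159 log2 units (adjusted p = 1.40e-04). The remaining 5 of the 15 largest falls no longer passed when 1 isolation was left out. *Slc1a1*, a glutamate transporter gene, had an adjusted p of 0.0940 without isolation 2. The corresponding p was 0.0830 without isolation 3 for *Tnfsf15*, a TNF family ligand gene, 0.132 without isolation 2 for *Gbp11*, annotated as a polymorphic pseudogene, 0.0504 without isolation 1 for *Vmn1r43*, and 0.252 without isolation 3 for *Krtcap3*. The deposited *Vmn1r43* gene shares exons with *Vmn1r42* on the same strand, and counts of that pair could be divided either way.

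Genes of inflammatory signalling fell more often than they rose. Of 35 chemokines and cytokines, 10 fell (28.6%) and 2 rose (5.71%), with a median of -0.06. *Ccl4*, a chemokine gene, was at 4.29, 5.65, 4.68 and 2.42 CPM with PBS and at 1.60, 1.81, 2.38 and 1.39 CPM with ligand in isolations 1 to 4 (log2 fold change -1.22 ± 0.193, adjusted p = 1.98e-04). *Tslp*, the gene of an alarmin cytokine, fell by 0.96 ± 0.175 log2 units (adjusted p = 8.44e-04), *Ccl9* (log2 fold change -0.66 ± 0.0994, adjusted p = 1.29e-04), and *Kitl*, the stem cell factor gene (log2 fold change -0.24 ± 0.0419, adjusted p = 6.35e-04). *Cxcl16* and *Cxcl12*, the latter being the ligand gene of CXCR4, rose with log2 fold changes of 0.44 and 0.30. Of 23 NF-kappaB subunits and targets, 7 fell (30.4%) and 3 rose (13.0%), and 4 fell without isolation 2. The falls included the adaptor genes *Traf1* (log2 fold change -0.67 ± 0.120, adjusted p = 7.41e-04), and *Traf2* (log2 fold change -0.47 ± 0.0703, adjusted p = 1.26e-04), the kinase gene *Ikbke* (log2 fold change -0.39 ± 0.0785, adjusted p = 0.00236), and *Birc2*, the gene of a ubiquitin ligase of the TNF receptor complex (log2 fold change -0.36 ± 0.0515, adjusted p = 8.46e-05). The inhibitor genes *Nfkbid* and *Tnfaip3* rose with log2 fold changes of 0.82 and 0.28. The third rise of the list, *Tnfaip2*, was from 769 ± 54.7 CPM to 1165 ± 47.6 CPM (log2 fold change 0.60 ± 0.0452, adjusted p = 2.48e-08). The leukocyte markers given above were between 46.6 and 86.1 CPM in sum with PBS and between 42.2 and 72.8 CPM with ligand. Without the isolation block, 1 fall among the chemokines and cytokines passed, and 0 falls and 1 rise among the NF-kappaB genes.

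Interferon-stimulated genes had a median of -0.17 on the log2 scale, against -0.01 for all genes. Of the 85 tested, 76 lay below 0, against 8143 of all 15693 genes tested. Of the 85, 8 fell (9.41%, against 3.83% of genes tested) and 0 rose in edgeR. At an unadjusted p under 0.05 in edgeR, 18 were lower and 1 higher, and DESeq2 called 6 and 0. *Gbp4*, a guanylate-binding protein gene, fell from 132 ± 43.6 CPM to 84.3 ± 36.9 CPM (log2 fold change -0.68 ± 0.0760, adjusted p = 3.76e-06). It shares exons with *Gbp8* and *Gbp9* on the same strand. *Slfn3*, a Schlafen gene, fell by 0.46 ± 0.0778 log2 units (adjusted p = 3.89e-04). *Rsad2*, the viperin gene, was lower by 0.95 on the log2 scale, but its adjusted p was 0.0641 without isolation 1. The number of falls depended on the libraries fitted. It was 38 when the 8 Ctrl libraries were fitted alone, 19 with quantile normalisation and ComBat, 40 without a filter on low counts, 4 and 5 without isolations 2 and 3, 17 without isolation 4 and 0 without the isolation block. All cells had been expanded with interferon gamma before it was withdrawn at seeding, in both groups alike.

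**Figure D4:**
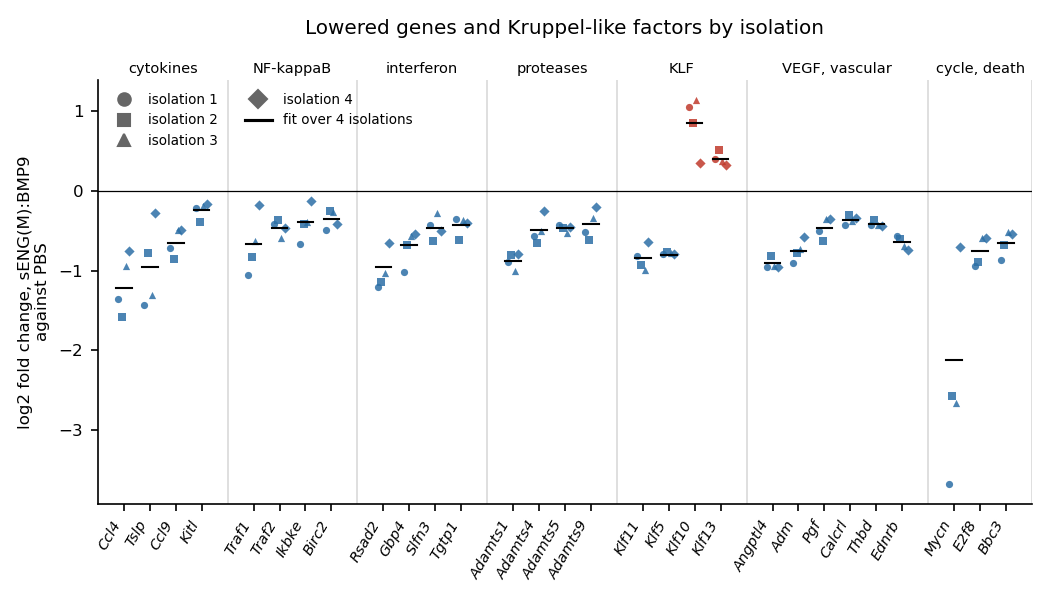
Log2 fold change with sENG(M):BMP9 against PBS in each of isolations 1 to 4 (marker shapes) for lowered genes of several lists and for 4 Kruppel-like factors, with black bars for the fit over the 4 isolations. *Klf10* and *Klf13* (red) lie above 0, and all isolations of the other genes lie under 0. The spread is widest for *Mycn*, from -3.69 to -0.70.

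Immediate early genes moved in both directions. Of 38 genes, 12 rose (31.6%) and 9 fell (23.7%), with 5 falls without isolation 2. *Junb*, an AP-1 subunit gene, rose from 159.5 ± 18.6 CPM to 314 ± 51.4 CPM (log2 fold change 0.97 ± 0.0569, adjusted p = 9.46e-10), and *Gadd45g*, a growth arrest gene (log2 fold change 2.07 ± 0.153, adjusted p = 1.98e-08). *Egr1*, the prototype serum-response gene, fell by 0.59 ± 0.0953 log2 units (adjusted p = 2.64e-04). *Zfp36*, the gene of the mRNA-destabilising protein tristetraprolin, fell by 0.56 ± 0.0887 log2 units (adjusted p = 1.97e-04), and *Plk2*, a polo-like kinase gene (log2 fold change -0.58 ± 0.0753, adjusted p = 2.34e-05). Among 19 MAPK phosphatase and Sprouty feedback genes, 4 rose (21.1%) and 7 fell (36.8%). *Dusp6*, the gene of an ERK phosphatase, rose from 81.1 ± 16.6 CPM to 184 ± 14.5 CPM (log2 fold change 1.21 ± 0.122, adjusted p = 1.18e-06), and *Spry1* rose by 0.92 ± 0.0978 log2 units (adjusted p = 2.16e-06). *Dusp10*, the gene of a JNK and p38 phosphatase, fell by 0.88 ± 0.0960 log2 units (adjusted p = 2.99e-06), and *Spry4* (log2 fold change -0.45 ± 0.0679, adjusted p = 1.25e-04). *Errfi1*, an inhibitor gene of the EGF receptor, fell by 0.38 ± 0.0604 log2 units (adjusted p = 2.53e-04). A fit without the block called 2 immediate early rises and 0 falls, and 1 and 1 of the feedback genes.

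Angiogenic and vasoactive genes also divided. Of 52 VEGF, angiopoietin and tip cell genes, 11 rose (21.2%) and 6 fell (11.5%). *Kdr*, the gene of VEGF receptor 2, was at 128, 137, 37.7 and 26.2 CPM with PBS and at 209, 179, 84.7 and 80.1 CPM with ligand in isolations 1 to 4 (log2 fold change 0.92 ± 0.135, adjusted p = 1.03e-04). *Vegfa* rose by 0.75 ± 0.0806 log2 units (adjusted p = 2.50e-06), and *Efna1*, an ephrin gene (log2 fold change 1.28 ± 0.125, adjusted p = 7.30e-07). *Ephb4*, the venous ephrin receptor gene, rose by 0.76 ± 0.0507 log2 units (adjusted p = 4.52e-09). *Angptl4* fell by 0.81 to 0.96 in each isolation (log2 fold change -0.91 ± 0.103, adjusted p = 4.46e-06). *Adm*, which encodes the vasodilator peptide adrenomedullin, fell by 0.75 ± 0.0530 log2 units (adjusted p = 9.83e-09), and *Calcrl*, its receptor gene (log2 fold change -0.36 ± 0.0386, adjusted p = 2.18e-06). *Pgf*, the placental growth factor gene, fell by 0.46 ± 0.0596 log2 units (adjusted p = 2.14e-05). In the vasoactive list, 7 of 29 rose (24.1%, against 5.86% of genes tested) and 3 fell (10.3%, against 3.83%). *Edn1*, which encodes endothelin 1, rose from 30.1 ± 17.9 CPM to 113 ± 58.5 CPM (log2 fold change 1.95 ± 0.0973, adjusted p = 8.74e-11), while the receptor gene *Ednrb* fell (log2 fold change -0.64 ± 0.117, adjusted p = 8.61e-04). *Bdkrb2*, a bradykinin receptor gene, rose by 2.40 ± 0.244 log2 units (adjusted p = 1.22e-06). *Ptgs2*, the cyclooxygenase 2 gene, rose by between 0.30 and 2.74 in the single isolations (log2 fold change 1.64 ± 0.291, adjusted p = 6.53e-04). Without the isolation block, 2 rises and 0 falls of each of these lists passed.

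On the blood-facing surface, 5 of 23 coagulation and fibrinolysis genes rose (21.7%, against 5.86% of genes tested) and 4 fell (17.4%, against 3.83%). *F3*, the tissue factor gene, rose by 1.00 ± 0.129 log2 units (adjusted p = 2.35e-05). *Thbd*, which encodes the anticoagulant thrombomodulin, fell by 0.41 ± 0.0439 log2 units (adjusted p = 2.11e-06). Of 16 leukocyte adhesion genes, 5 rose (31.25%) and 2 fell (12.5%). *Sele*, the E-selectin gene, rose by 0.59 ± 0.0555 log2 units (adjusted p = 4.37e-07), and *Icam1* rose from 1321 ± 145 CPM to 1906 ± 263 CPM (log2 fold change 0.52 ± 0.0481, adjusted p = 3.60e-07). *Vcam1* fell from 2293 ± 422 CPM to 1873 ± 372 CPM (log2 fold change -0.30 ± 0.0441, adjusted p = 1.18e-04). Among 33 junction and transport genes, 7 rose (21.2%), or 4 without isolation 1, and 4 fell (12.1%). The connexin 43 gene *Gja1* fell (log2 fold change -0.36 ± 0.0481, adjusted p = 3.78e-05), in contrast to *Gja4*.

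Of 67 matrix genes, 5 rose and 5 fell (7.46% each, against 5.86% and 3.83% of genes tested), with 2 and 3 rises without isolations 1 and 4. *Eln*, the elastin gene, rose from 5.42 ± 3.02 CPM to 12.6 ± 6.80 CPM (log2 fold change 1.21 ± 0.135, adjusted p = 4.34e-06). The falls were led by aggrecanase-type proteases. Of 27 genes of the ADAM and ADAMTS families, 6 fell (22.2%) and 0 rose in edgeR and in DESeq2, with 6 and 0 at an unadjusted p under 0.05. *Adamts1*, with the smallest p of any gene that fell, was at 238, 453, 253 and 312 CPM with PBS and at 128, 259, 126 and 179.9 CPM with ligand in isolations 1 to 4 (log2 fold change -0.88 ± 0.0409, adjusted p = 4.06e-11). *Adamts4*, *Adamts5* and *Adamts9* fell with log2 fold changes of -0.49, -0.47 and -0.42. *Adamtsl2*, which rose, encodes no protease. Of 32 collagen chain genes 0 passed in edgeR or DESeq2, with 2 lower at an unadjusted p under 0.05 and a median of 0.03.

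Of 51 receptor tyrosine kinase genes and ligands, 9 rose (17.6%, against 5.86% of genes tested) and 3 fell (5.88%, against 3.83%). *Fgfr3*, an FGF receptor gene, rose from 3.63 ± 1.00 CPM to 11.3 ± 3.12 CPM (log2 fold change 1.62 ± 0.130, adjusted p = 6.04e-08), and *Efnb1* (log2 fold change 1.10 ± 0.0713, adjusted p = 3.03e-09). *Mertk*, a receptor gene for apoptotic cell uptake, fell by 0.19 ± 0.0340 log2 units (adjusted p = 7.52e-04). Ephrins and their receptors, 18 genes by symbol, had 6 rises (33.3%) and 0 falls in edgeR and in DESeq2. The same counts were found at an unadjusted p under 0.05 in edgeR. Genes of CDC42 effectors went opposite ways. *Cdc42ep4* rose by 0.96 ± 0.0574 log2 units (adjusted p = 1.08e-09), while *Cdc42ep2*, given above, and *Cdc42ep3* fell, the latter (log2 fold change -0.48 ± 0.0741, adjusted p = 1.74e-04). Of 34 circadian clock and nuclear receptor genes, 7 rose (20.6%) and 4 fell (11.8%). *Rara*, the retinoic acid receptor alpha gene, rose by 0.82 ± 0.0612 log2 units (adjusted p = 2.43e-08), and *Bhlhe40*, a clock-linked repressor gene (log2 fold change 0.77 ± 0.0654, adjusted p = 1.22e-07). *Nr2f2*, which encodes the venous identity factor COUP-TFII, fell from 118 ± 6.16 CPM to 85.7 ± 6.52 CPM (log2 fold change -0.46 ± 0.0447, adjusted p = 6.55e-07). *Per1* fell by 0.29 ± 0.0442 log2 units (adjusted p = 1.26e-04).

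Of 44 S phase genes, 4 rose (9.09%, against 5.86% of genes tested) and 1 fell (2.27%, against 3.83%), and of 51 G2 and M phase genes, 1 rose (1.96%) and 2 fell (3.92%). *E2f8*, an atypical E2F repressor gene, fell from 38.3 ± 4.34 CPM to 22.6 ± 1.83 CPM (log2 fold change -0.76 ± 0.0718, adjusted p = 5.26e-07). Among 25 cyclin, CDK inhibitor and p53 target genes, 2 rose (8%) and 5 fell (20%). The falls were 3, 2 and 3 without isolations 1, 2 and 3. *Bbc3*, which encodes the pro-apoptotic protein PUMA, fell from 41.5 ± 3.13 CPM to 26.4 ± 2.23 CPM (log2 fold change -0.65 ± 0.0595, adjusted p = 3.24e-07). Of 25 unfolded protein and amino acid stress genes, 2 rose (8%) and 5 fell (20%), with 1 fall without isolation 2. *Ddit3*, the CHOP gene, fell by 0.54 ± 0.0906 log2 units (adjusted p = 3.87e-04), and *Ddit4*, an mTOR inhibitor gene, rose by 0.59 ± 0.0880 log2 units (adjusted p = 1.13e-04). *Abca1*, the cholesterol efflux transporter gene, rose by 0.61 ± 0.0772 log2 units (adjusted p = 1.92e-05). It was 1 of 3 rises among 32 cholesterol genes (9.38%, against 5.86% of genes tested), and 1 rise was left without isolation 1. Among YAP and CCN targets 6 of 25 rose (24%) and 1 fell (4%), with *Ccn1* rising by a log2 fold change of 0.52 ± 0.0808 (SE, adjusted p = 1.85e-04). Of 19 heat shock and oxidative stress genes 2 rose and 2 fell (10.5% each). In 28 arterial, venous and capillary genes there were 4 rises and 4 falls (14.3% each), and in 12 lymphatic markers 1 rise, *Foxc2* (8.33%).

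For some classes edgeR and DESeq2 called 0 genes in either direction. These were 26 glycolysis and glucose uptake genes, 37 tRNA synthetase genes and 19 mitochondrially encoded genes, with medians of -0.01, -0.02 and -0.10. At an unadjusted p under 0.05, edgeR had 1 higher and 3 lower, 2 higher and 1 lower, and 0 higher and 2 lower of them. Among 186 genes whose symbols match ribosomal proteins, 2 rose (1.08%) and 0 fell in both tools. In edgeR 13 were higher and 4 lower at an unadjusted p under 0.05.

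**Figure D5:**
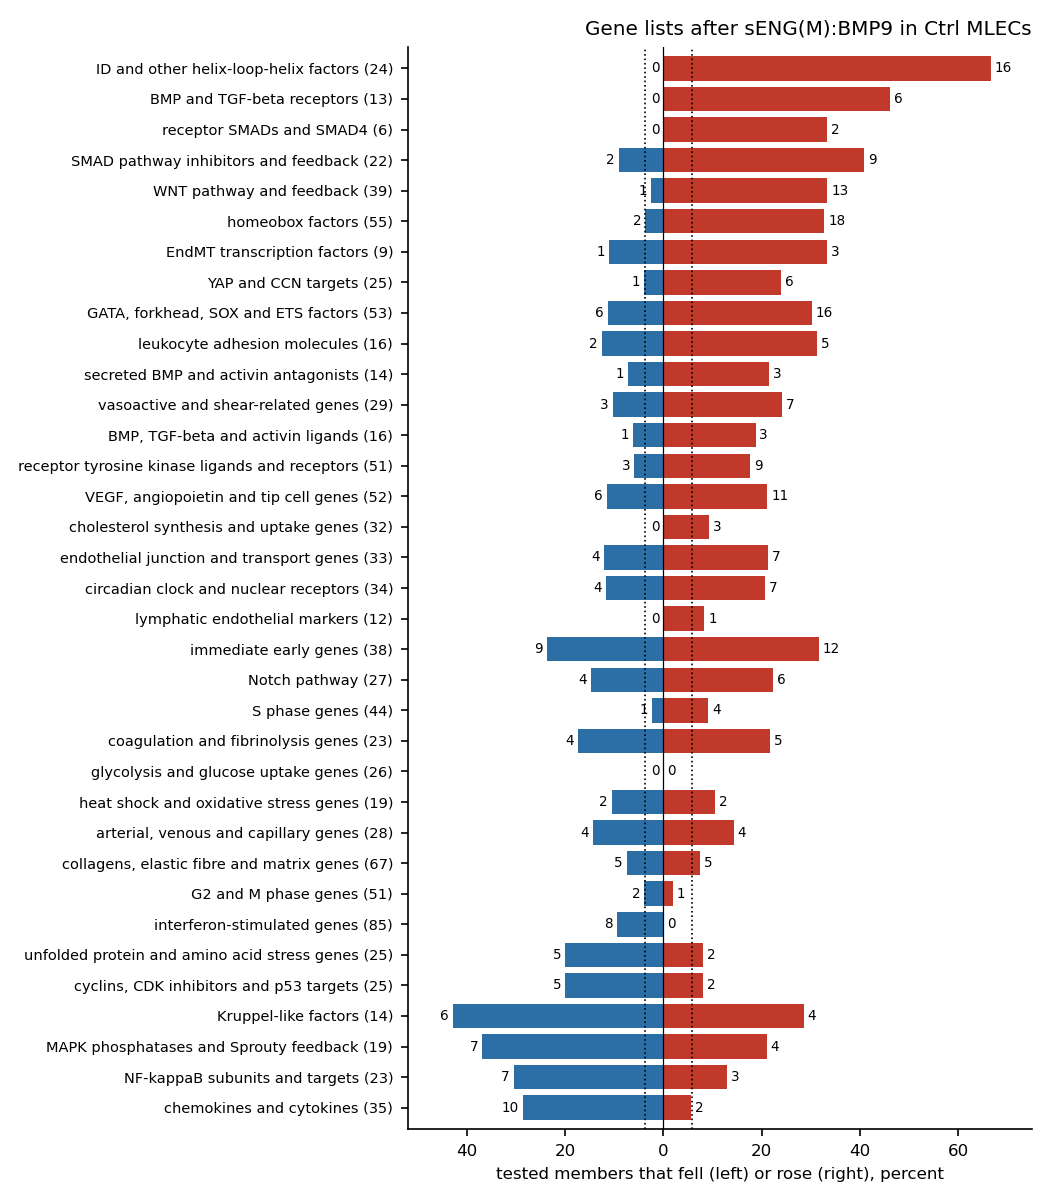
Share of the tested members of the gene lists shown (number tested in parentheses) that rose (red, right) or fell (blue, left) with sENG(M):BMP9, in percent, with the number of genes beside each bar. Dotted lines mark the shares over all genes tested, 5.86% higher and 3.83% lower. Helix-loop-helix factors have the longest bar to the right, 16 of 24, and Kruppel-like factors the longest to the left, 6 of 14. The lists were chosen with earlier results of these data known.

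The genes that changed in Ctrl cells were also read in the KO cells of the same isolations. The Ctrl and KO contrasts compare different libraries, but all 16 libraries shared the estimates of spread and of isolation effects. Calls in Ctrl and KO cells are therefore not independent. The KO cells also differ in genotype, tamoxifen exposure and form of ligand, which cannot be told apart. Of the 920 genes that rose in Ctrl cells, 905 had a log2 fold change above 0 with pro:BMP9 in KO cells and 526 passed the test there, where 5.59% of genes tested were called. Of the 601 that fell, 589 were below 0 and 261 passed. Median changes were 0.40 in Ctrl and 0.28 in KO cells for the rises and -0.31 and -0.21 for the falls. The genes had been selected on their Ctrl values, so their Ctrl medians are not comparable with the KO medians as independent estimates. When the difference of the responses was tested, edgeR called 0 genes, with 565 at an unadjusted p under 0.05 and a smallest adjusted p of 0.923. DESeq2 also called 0, with 288 at an unadjusted p under 0.05. Without a filter on low counts 52 genes were called and with quantile normalisation and ComBat 14. For *Nog* the log2 fold change was 8.58 in Ctrl and 7.12 in KO cells, for *Adamtsl2* 5.18 and 4.24, for *Smad6* 3.45 and 3.21, and for *Mycn* -2.13 and -1.30.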

How the data were processed

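RNA of MLECs from 4 isolations was sequenced as stranded poly(A) libraries with 150 bp paired-end reads. The authors deposited raw read counts per gene for 16 libraries, without normalisation. The reads had been aligned to GRCm39 with HISAT2 2.0.5, and the submitters' processing notes also list featureCounts 1.5.0-p3 and DESeq2 1.26.0. The annotation release and the strand setting of the counting were not given in the sources used here. Of the 206 genes considered for naming, 116 have exons overlapping a gene on the opposite strand and 16 on the same strand in GENCODE vM39, and reads of such pairs may be divided either way.

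Counts were analysed in R 4.3.3 with edgeR 4.0.16. Of 55414 genes listed, 29339 had a count and 15693 passed filterByExpr (minimum count 10, minimum total 15). TMM-normalised counts of all 16 libraries were fitted by quasi-likelihood, with the isolation as a block, because libraries of the same number come from the same mouse. After group means were removed, the Ctrl libraries of the same isolation correlated at 0.820 to 0.861 (4 pairs) and those of different isolations at -0.734 to 0.324 (12 pairs). The Benjamini-Hochberg adjustment covered all 15693 genes, and the threshold was 0.05. CPM values carry no prior count. For the log2 change within 1 isolation, a prior count of 2 was added. Where all PBS libraries of a gene were at or under 3 counts, a ratio with a counting interval was computed. Intervals cover counting error only. Each isolation gave 1 library per group. The p-values measure the spread left after group and isolation effects, estimated over all 16 libraries with information shared between genes. They do not measure differences in level between the 4 isolations. The procedure was tested on simulated data.

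Named genes were *Eng*, the 15 largest rises and falls among called genes with at least 1 CPM on average and the same direction in 4 of 4 isolations, the 5 smallest p in each direction, and up to 4 called members of each gene list and direction, with examples of these given in the text. The gene lists were written from general knowledge, and the members and lists were chosen with earlier results of these data known. Alternatives were no block, DESeq2 1.42.0, RLE size factors, no filter, at least 10 counts in every library, the 8 Ctrl libraries alone, quantile normalisation with ComBat (sva 3.50.0, the isolation taken as the batch) and DESeq2, and leaving out each isolation. No Ctrl library was left out, and the KO libraries served for the shared fit and for 1 comparison. A gene and a gene list are not reported here.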

Additional observations from a re-analysis of the deposited data

Results flagged for a closer look

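Of 618 sets of 4 values (the PBS level, the ligand level and the single-isolation log2 fold changes of 206 genes), 29 held 1 isolation far from the other 3 by Dixon's criterion, which chance meets in about 1 set in 20. Isolations 1 to 4 were the distant one in 6, 10, 4 and 9 sets.

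In isolation 2 the log2 fold change was 3.20 for *Id1* (2.23 to 2.36 in the others), 3.50 for *Wnt11* (1.19 to 1.46), -0.36 for *Thbd* (-0.44 to -0.43), -0.81 for *Angptl4* (-0.96 to -0.95), -0.82 for *Zfp36* (-0.50 to -0.45) and -0.76 for *Inhba* (-0.47 to -0.43). Its levels stood apart for *Icam1* with PBS (1536 CPM against 1231 to 1277), and with ligand for *Acod1* (67.8 CPM against 46.1 to 46.6), *Mertk* (242 against 195 to 201) and *Slc1a1* (1.88 against 0.297 to 0.465).

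Isolation 4 had a log2 fold change of 2.14 for *Sox18* (2.73 to 2.75 in the others), -0.69 for *Stc1* (-1.13 to -1.08) and 0.44 for *Dusp4* (0.23 to 0.24). Its *Inhba* level was 141 CPM with PBS (50.6 to 55.4) and 103 CPM with ligand (32.7 to 41.2). With ligand it also held 4.04 CPM of *Mycn* (0.475 to 1.07), 73.6 CPM of *Atad2* (51.9 to 54.5) and 26.0 CPM of *Snai2* (19.3 to 20.2), and with PBS 79.9 CPM of *Cdkn2b* (111 to 116).

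With PBS, isolation 1 had 3.64 CPM of *Smad9* (1.03 to 1.38), 65.9 CPM of *Arhgap27* (78.7 to 81.1), 104 CPM of *Per1* (117 to 119.7), 2.01 CPM of *Wnt11* (0.394 to 0.540) and 2.01 CPM of *Heyl* (0.360 to 0.604). With ligand it had 273 CPM of *Sox4* (232 to 237). Isolation 3 had 0.060 CPM of *Nog* with PBS, a single count, where the others had 0. It also had 7.38 CPM of *Arhgap20* with PBS (12.1 to 12.6), and with ligand 11.05 CPM of *Dlx1* (1.07 to 1.39) and 22.7 CPM of *Stard13* (31.8 to 33.5). With 1 isolation left out, the adjusted p (edgeR) rose to 0.183 for *Dlx1*, 0.168 for *Snai2*, 0.141 for *Heyl* and 0.0940 for *Slc1a1*. The causes were not tested.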

How the results depend on the processing

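The blocked comparison called 1521 genes. Without the replicate block it called 167, of which 136 were higher and 31 lower, and 70 called genes changed at least 2-fold in place of 159. The same 167 genes were among the 1521. The requirement of at least 10 counts in every library left 94 genes changed at least 2-fold, since low genes were not tested. Quantile normalisation, ComBat and DESeq2 gave 1113 rises and 1115 falls, and the cause of the larger number of falls was not tested. Leaving out 1 isolation gave 1058 to 1392 changed genes, 653 to 807 rises, 370 to 585 falls and 140 to 178 genes changed at least 2-fold, with the 370 falls obtained without isolation 2. The difference of the responses between Ctrl and KO cells gave 0 calls, but 52 without a filter on low counts and 14 with ComBat. DESeq2 with the block kept 1351 of the 1521 calls and RLE size factors 1505. All 1521 genes, where tested, kept their direction in each of the 11 alternatives. Depth limits mainly low genes, for which a handful of counts in 1 library sets the level.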
